A study of Mus musculus with 9 samples.

Results

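Beta-defensins and other antimicrobial proteins of mouse skin are described here through 10 genes, Defb1, Defb3, Defb4, Defb6, Defb8, Defb14, Lcn2, Slpi, Ltf and Camp, of the 54532 genes in the table. The genes were taken by symbol, and the choice was made with results of all 9 libraries in view, so the differences below describe these genes and support nothing beyond them. Beta-defensins are short cationic peptides with paired disulfide bonds that epithelial cells secrete and that disrupt microbial membranes, and several also draw immune cells to a site through chemokine receptors. Lipocalin 2 (Lcn2) withholds iron by binding bacterial siderophores, lactotransferrin (Ltf) binds iron itself, the secretory leukocyte peptidase inhibitor (Slpi) blocks neutrophil proteases and kills bacteria, and Camp encodes the cathelicidin precursor. In skin, keratinocytes make some of these proteins at rest and raise others after wounding or exposure to cytokines, while neutrophils carry Ltf, Camp and Lcn2 proteins in their granules.

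The study sequenced RNA of mouse skin in 3 groups of 3 libraries: healthy control skin, skin given bleomycin, and skin given bleomycin with nitrate applied to its surface. All 9 libraries carry the same wild-type label. Bleomycin, an antibiotic that cuts DNA, causes fibrosis in mouse skin and is used as a model of systemic sclerosis. Nitrate is the ion from which bacteria and tissues can form nitrite and then nitric oxide. The sources used here give no strain, age, sex, dose, time point or number of animals, and nothing says that the libraries of a group came from separate animals. The p-values therefore measure the spread between these libraries, which may be technical. Values are FPKM, fragments scaled to gene length and library size, as the authors deposited them. Whole reads could be recovered from them and came to between 15804050 and 18352592 per library. The libraries differed in hair follicle RNA within each group: the mean log2(FPKM + 1) of 18 follicle genes was 0.27, 3.77 and 5.92 in the controls, 1.32, 5.57 and 6.86 with bleomycin, and 7.84, 5.69 and 8.40 with bleomycin plus nitrate, each in the order of libraries 1 to 3, as in all such triplets below. Control 1 and bleomycin 1 were the lowest of their groups, and results without both are given where they differ. In whole skin, fewer cells of a type and less RNA per cell cannot be told apart.

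Of the 6 beta-defensin genes, 5 lie in 1 region of chromosome 8 (mm10), whose edges were set here at the outer ends of Defb14 and Defb8. Its span of 253.2 kb, from 19194357 to 19447606, holds 11 genes of the table, of which 7 are named Defb. In order these were Defb14 (19194357 to 19195212), Defb4 (19198706 to 19201545), Defb6 (19225478 to 19228209) and Defb3 (19293360 to 19295291) on the plus strand and Defb8 (19445769 to 19447606) on the minus strand. Defb1, at 21776599 to 21795185 on the plus strand, starts 2.33 Mb beyond the region. Each of these 6 genes has 1 annotated transcript of 2 exons. Other beta-defensin genes of chromosome 8 also lie outside the region. Defb40 and Defb37 start before it, at 18974940 and 18986233, and Defb2 and Defb35 start beyond Defb1, at 21839926 and 21938352. Lcn2 (32384633 to 32388252) and Slpi (164354070 to 164389095) lie on the minus strand of chromosome 2, Camp (109847379 to 109849617) on the minus strand and Ltf (111019271 to 111042767) on the plus strand of chromosome 9. The Ensembl identifiers in the table are ENSMUSG00000044748 for Defb1, ENSMUSG00000039775 for Defb3, ENSMUSG00000059230 for Defb4, ENSMUSG00000050756 for Defb6, ENSMUSG00000031471 for Defb8, ENSMUSG00000046354 for Defb14, ENSMUSG00000026822 for Lcn2, ENSMUSG00000017002 for Slpi, ENSMUSG00000032496 for Ltf and ENSMUSG00000038357 for Camp.

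The 250 bases before 1 RefSeq start of transcription are shown for 5 of these genes. Defb3, Defb6 and Defb8 are shown because they have similar sequences there and different levels in these libraries. Lcn2 and Slpi are shown because, among the tested genes, only their bleomycin libraries stood above all other libraries. Those of Defb3 and Ltf, which were not tested, did so too, on few reads. The sequences are from RefSeq on GRCm38.p6, whose table held 7 of the 10 genes, and each is written 5′ to 3′ along its gene. Slpi and Lcn2 have 3 and 6 annotated transcripts. Their windows lie inside the gene spans given above, which on the minus strand begin at 164389095 and 32388252. Capitals mark TTGCNNAA, the core of a site that C/EBP factors can bind, and TATANAA, a form of the TATA box chosen after the sequences were seen, each read on either strand.
Defb3, chr8:19293111-19293360, plus strand: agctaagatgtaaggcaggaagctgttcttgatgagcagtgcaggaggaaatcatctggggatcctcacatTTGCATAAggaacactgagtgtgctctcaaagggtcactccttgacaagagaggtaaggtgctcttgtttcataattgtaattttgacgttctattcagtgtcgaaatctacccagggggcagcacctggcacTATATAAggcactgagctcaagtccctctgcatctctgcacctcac
Defb6, chr8:19225228-19225477, plus strand: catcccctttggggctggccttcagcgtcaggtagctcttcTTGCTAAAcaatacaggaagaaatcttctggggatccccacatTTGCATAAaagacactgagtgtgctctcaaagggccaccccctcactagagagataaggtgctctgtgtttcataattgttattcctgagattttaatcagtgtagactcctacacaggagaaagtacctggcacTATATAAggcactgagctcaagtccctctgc
Defb8, chr8:19447607-19447856, minus strand: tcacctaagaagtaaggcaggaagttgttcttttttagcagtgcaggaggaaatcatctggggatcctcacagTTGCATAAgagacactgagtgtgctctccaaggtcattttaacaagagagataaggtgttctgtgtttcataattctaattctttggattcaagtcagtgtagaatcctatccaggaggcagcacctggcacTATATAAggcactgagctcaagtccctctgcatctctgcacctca
Lcn2, chr2:32387740-32387989, minus strand: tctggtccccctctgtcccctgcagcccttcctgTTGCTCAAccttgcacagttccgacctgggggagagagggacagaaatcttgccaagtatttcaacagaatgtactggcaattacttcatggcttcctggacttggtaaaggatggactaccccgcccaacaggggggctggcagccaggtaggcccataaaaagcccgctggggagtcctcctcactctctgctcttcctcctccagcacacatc
Slpi, chr2:164356508-164356757, minus strand: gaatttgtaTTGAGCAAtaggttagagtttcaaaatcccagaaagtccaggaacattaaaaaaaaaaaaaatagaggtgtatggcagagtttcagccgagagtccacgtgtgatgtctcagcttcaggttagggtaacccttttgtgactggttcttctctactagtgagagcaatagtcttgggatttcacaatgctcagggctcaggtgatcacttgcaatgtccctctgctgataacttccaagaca
Aligned end to end, the Defb3 and Defb8 sequences were identical at 220 of 254 alignment columns, or 86.6%. Defb6 shared 72.7% of columns with Defb8 and 72.5% with Defb3, and the next pair, Defb3 and Slpi, shared 50.3%. TTGCNNAA occurred once in Defb3, Defb8, Lcn2, Slpi and Ltf, at 2 places in Defb6 and nowhere in Camp, and 9.56% of 32851 mouse promoters of the same length held it. Defb3, Defb6 and Defb8 carried the same 8 letters, TTGCATAA, beginning at positions -179, -166 and -177 from the start. TATANAA occurred once in each of these 3, as TATATAA beginning at positions -46, -31 and -45, in none of the other 4, and in 10.4% of promoters. Searches on both strands for the NF-kappaB type (GGGA, any 4 bases, then CC, in 17.6% of promoters), TGANTCA (AP-1, 6.75%) and TTCCNGGAA (STAT, 0.913%) found none in these 7 sequences. No match of 1 motif lay over another, and a match or its absence describes this window only.

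Defb6 had the highest level of the 10 genes in every library. It is a beta-defensin known in mouse from epithelia and muscle. Its FPKM was 113, 97.6 and 115 in the controls, 245, 292 and 254 in the bleomycin libraries, and 208, 474 and 251 in the nitrate libraries. All bleomycin and nitrate libraries lay above all controls, the bleomycin libraries were close together, and nitrate 2 stood above every other library. Group means were 108 ± 9.38, 264 ± 24.9 and 311 ± 143 (SD, n = 3 each). On the log2(FPKM + 1) scale Defb6 was 1.27 ± 0.28 (SE) higher with bleomycin than in control (limma, Benjamini-Hochberg adjusted p = 0.0293) and 1.42 ± 0.28 higher with bleomycin plus nitrate than in control (limma, adjusted p = 0.0263). Nitrate against bleomycin gave 0.15 ± 0.28 (limma, adjusted p = 0.823), and without nitrate 2 that difference was -0.20. Leaving out any 1 of the 6 libraries of the bleomycin comparison took its adjusted p to between 0.0693 and 0.109, and leaving out control 1, 2 or 3 or nitrate 3 took that of nitrate against control to between 0.0505 and 0.102. The bleomycin call was also lost under quantile normalization (0.0602) and with no filter on low values (0.0639), and the nitrate call with no filter (0.0613) and with only the groups compared in the fit (0.0647).

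**Figure D1:**
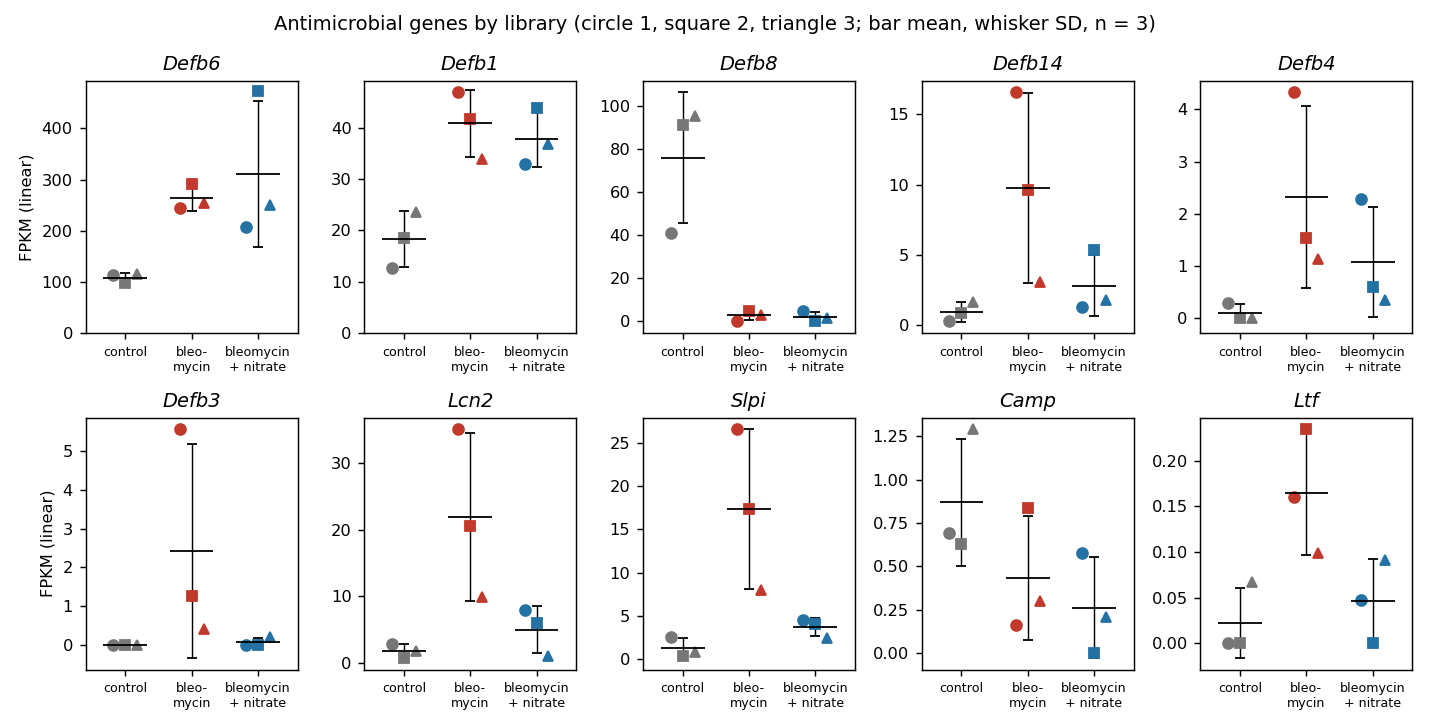
FPKM of the 10 genes in the 9 libraries on linear axes of different range, with the mean as a bar and the SD as a whisker (n = 3). Defb6 and Defb1 were higher in all 6 bleomycin-treated libraries than in control, Defb8 was lower in all 6, and Lcn2 and Slpi were highest in the 3 bleomycin libraries.

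Defb1, the mouse counterpart of the human beta-defensin that epithelia make without stimulation, followed Defb6 at a lower level. Its FPKM was 12.7, 18.6 and 23.6 in the controls, 46.9, 41.8 and 33.9 with bleomycin, and 33, 43.9 and 36.9 with bleomycin plus nitrate. No treated library overlapped the controls, and the treated groups overlapped each other. The rise over control was 1.15 ± 0.22 on the log2 scale with bleomycin (limma, adjusted p = 0.0206) and 1.05 ± 0.22 with bleomycin plus nitrate (limma, adjusted p = 0.0324). Between nitrate and bleomycin the difference was -0.10 ± 0.22 (limma, adjusted p = 0.851). The bleomycin call was lost without control 2 (adjusted p = 0.0720), bleomycin 1 (0.0670) or bleomycin 2 (0.0574), and without control 1 and bleomycin 1 together (0.113). The nitrate call against control was lost without control 1, control 2, nitrate 1 or nitrate 3 (0.0592 to 0.107), with no filter on low values (0.0771) and with only the groups compared in the fit (0.0668).

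Defb8 went the other way. It had 40.8, 91.6 and 95.6 FPKM in the controls, against 0, 4.42 and 2.77 in the bleomycin libraries and 4.37, 0 and 1.10 in the nitrate libraries. These values rest on 1098 reads over the controls, 36 over the bleomycin libraries and 29 over the nitrate libraries. Every treated library was below every control, and 1 library of each treated group was listed at 0. The pooled level was 31.6-fold lower with bleomycin and 42.6-fold lower with bleomycin plus nitrate than in control. On the log2(FPKM + 1) scale the differences were -4.72 ± 0.76 (limma, adjusted p = 0.0113) and -5.01 ± 0.76 (limma, adjusted p = 0.0149). With a pseudocount of 0.1 the adjusted p of the first was 0.0895, and without control 2 it was 0.0514. The second had 0.0679 with that pseudocount, 0.0680 without control 2 and 0.0580 without nitrate 3. Of 257 stretches of 31 bases in the Defb8 transcript, 51 (19.8%) also occur in other genes, 42 of them in Defb4, so a part of its short reads could be assigned to either gene.

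Defb14, Defb4 and Defb3 were low in control skin and higher with bleomycin, on few reads. Defb14 is the mouse counterpart of human beta-defensin 3, which binds the chemokine receptor Ccr6, and Defb4 and Defb3 are the mouse genes usually set beside the inducible human beta-defensin 2. Defb14 had 0.321, 0.875 and 1.69 FPKM in the controls, 16.5, 9.62 and 3.06 with bleomycin, and 1.34, 5.35 and 1.80 with bleomycin plus nitrate. All bleomycin libraries were above the controls, while nitrate 2 lay within the bleomycin range and nitrate 1 within the control range. The pooled ratio of bleomycin to control was 9.65 (exact 95% interval 5.04 to 20.8, 100 against 10 reads, counting error only). Defb14 was 2.28 ± 0.57 higher with bleomycin on the log2 scale (limma, adjusted p = 0.0457), a call that 11 of 19 alternatives lost (adjusted p 0.0281 to 0.213), among them leaving out any 1 of the 3 controls, bleomycin 1 or 2, or nitrate 1 or 3 (0.0543 to 0.138), and voom on the recovered reads (0.0943). Nitrate against bleomycin gave -1.39 ± 0.57 (limma, adjusted p = 0.249), and nitrate against control gave 0.88 ± 0.57 (limma, adjusted p = 0.315).

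Defb4 had 2 reads in control 1 and none in control 2 and 3, then 32, 12 and 9 reads in the bleomycin libraries and 19, 5 and 3 reads in the nitrate libraries. In FPKM these were 0.288, 0 and 0, then 4.32, 1.53 and 1.12, then 2.28, 0.601 and 0.347. All 6 treated libraries exceeded the controls, and the treated groups overlapped. Its difference between bleomycin and control, 1.49 ± 0.42, missed the threshold (limma, adjusted p = 0.0634) and passed it in 6 of 19 alternatives (0.0186 to 0.186). Defb4 entered the test because it reached 1 FPKM in the 3 bleomycin libraries and nitrate 1, so its direction was fixed by the filter. The pooled ratio of bleomycin to control was 25.6 (6.74 to 217) and that of bleomycin to nitrate 2.13 (1.32 to 3.53), with intervals for counting error only.

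Defb3 was listed at 0 in all 3 controls and in nitrate 1 and 2. It had 25, 6 and 2 reads in the bleomycin libraries and 1 read in nitrate 3. Counting 3 reads over the control group as the limit that 0 allows, the pooled ratio of bleomycin to control was 10.6. That value leaves out the counting error of the bleomycin reads and the spread between libraries, so it is no lower bound. Most Defb3 reads came from bleomycin 1. The ratio of bleomycin to nitrate was 35.9 with a counting interval of 6 to 1459. Defb3 was below the level needed for the test. With no filter on low values its difference of 1.46 ± 0.47 gave an adjusted p of 0.183 (limma).

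Summed over the 6 beta-defensin genes, FPKM came to 167, 209 and 236 in the controls, 318, 351 and 295 with bleomycin, and 249, 524 and 291 with bleomycin plus nitrate. Defb6 made up 67.6, 46.8 and 48.7% of that sum in the controls and 77.0 to 90.5% in the 6 treated libraries. Defb8 held 24.5, 43.9 and 40.5% in the controls and at most 1.76% in any treated library. The sum thus moved from a pair of abundant genes, Defb6 and Defb8, to Defb6 with Defb1 behind it. Another 37 beta-defensin genes are in the table, of which 10 had any read, and none of these exceeded 16 reads over the 9 libraries or 1.29 FPKM in 1 library. The 22 alpha-defensin genes had no read.

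**Figure D2:**
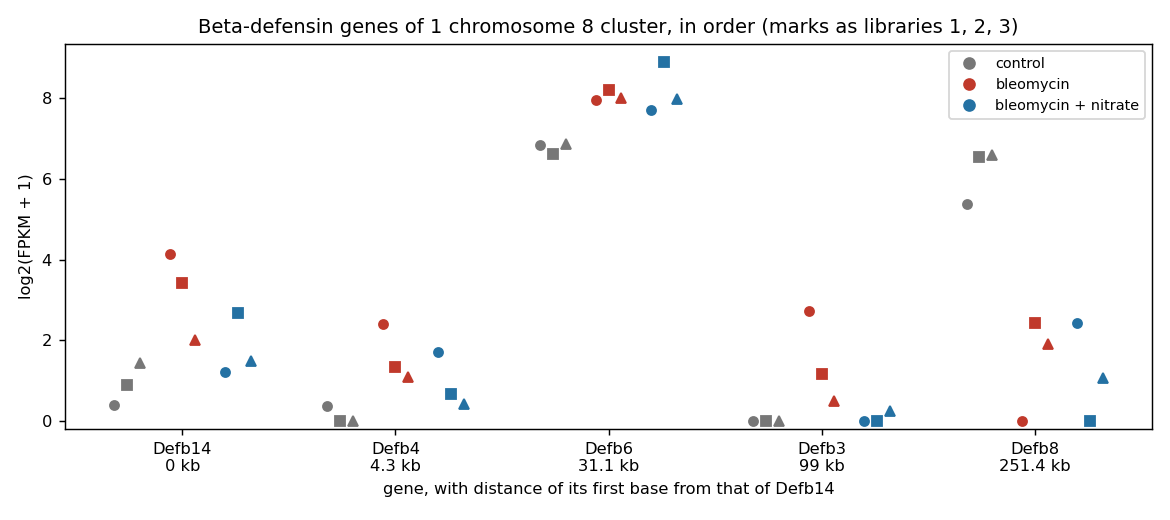
Log2(FPKM + 1) of 5 beta-defensin genes in each of the 9 libraries, in their order along chromosome 8, with the distance of each from Defb14 in kb; marks stand for libraries 1, 2 and 3. Defb6, at 31.1 kb, was the highest, and for Defb8, at 251.4 kb, the 3 controls lay above all 6 treated libraries.

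Neighbours in the region from Defb14 to Defb8 differed in level and in direction. Defb4 starts 4.3 kb, Defb6 31.1 kb, Defb3 99.0 kb and Defb8 251.4 kb from the start of Defb14. Defb46 and Defb5, which lie between Defb6 and Defb3, had 0 reads and 7 reads: Defb5 had 0 in control, 6 with bleomycin and 1 with nitrate.

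Lcn2 and Slpi were low in control skin and had the largest differences on the log2(FPKM + 1) scale among the 5 genes called higher with bleomycin, with pooled ratios of 12.6 and 14.5. Defb4, not called and on 2 control reads, had the larger ratio given above. Lcn2 had 2.77, 0.680 and 1.75 FPKM in the controls, 35.1, 20.5 and 9.94 in the bleomycin libraries, and 7.91, 5.95 and 1.02 in the nitrate libraries. Every bleomycin library exceeded every library of the other groups, and nitrate 3 lay within the control range. Lcn2 rose by 2.98 ± 0.62 on the log2 scale with bleomycin (limma, adjusted p = 0.0257), and 7 of 20 alternatives lost the call (adjusted p 0.0126 to 0.116), among them leaving out control 2 (0.101), control 3 (0.0665), bleomycin 1 (0.0748) or bleomycin 2 (0.0688), no filter on low values (0.0583) and voom (0.0662). Nitrate against bleomycin gave -2.03 ± 0.62 (limma, unadjusted p = 0.0106, adjusted p = 0.159), with all 3 nitrate libraries below all bleomycin libraries. Against control the nitrate group gave 0.95 ± 0.62 (limma, adjusted p = 0.321).

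Slpi had 2.55, 0.353 and 0.780 FPKM in the controls, 26.6, 17.4 and 8.03 with bleomycin, and 4.53, 4.07 and 2.45 with bleomycin plus nitrate. The bleomycin libraries again stood above all others, and nitrate 3 lay just below control 1. Slpi rose by 3.02 ± 0.46 with bleomycin (limma, adjusted p = 0.00960), the one call among the 10 genes that all 20 alternatives kept (adjusted p 0.00634 to 0.0419). Nitrate against bleomycin gave -1.86 ± 0.46 (limma, unadjusted p = 0.00345, adjusted p = 0.126) and nitrate against control 1.17 ± 0.46 (limma, adjusted p = 0.131). The microRNA gene Mir7678 lies inside Slpi on the same strand, so reads there could be assigned to either.

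Ltf and Camp, whose proteins neutrophils store in granules, stayed near 0 in all groups and were not tested. Ltf had 0, 0 and 4 reads in the controls, 9, 14 and 6 with bleomycin, and 3, 0 and 6 with bleomycin plus nitrate, at most 0.234 FPKM. Camp had 8, 8 and 17 reads in the controls, 2, 11 and 4 with bleomycin, and 8, 0 and 3 with bleomycin plus nitrate, at most 1.29 FPKM. Pooled over libraries, the ratio of bleomycin to control was 7 for Ltf (2.46 to 27.4) and 0.497 for Camp (0.260 to 0.919), with intervals for counting error only. The bleomycin libraries of Camp overlapped both other groups, and its 3 nitrate libraries lay below all controls. For Ltf all 3 bleomycin libraries exceeded every control and nitrate library. With no filter on low values the differences between bleomycin and control gave adjusted p of 0.194 for Ltf and 0.511 for Camp (limma). In that setting nitrate against control gave 0.271 for Camp, and nitrate against bleomycin 0.407 for Ltf (limma, adjusted p).

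The order of levels changed between groups. In control skin Defb6, Defb8, Defb1 and Lcn2 followed each other without overlap of their library ranges, and Lcn2, Slpi, Defb14 and Camp overlapped as neighbours. With bleomycin only Defb6 stood apart at the top, and Defb1, Lcn2, Slpi, Defb14, Defb3, Defb8 and Defb4 formed a chain in which each overlapped the next. With bleomycin plus nitrate Defb6, Defb1 and Lcn2 followed without overlap, and each later neighbour overlapped the next. Among the bleomycin libraries, library 1 was the highest and library 3 the lowest for Defb1, Defb14, Defb4, Defb3, Lcn2 and Slpi.

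Across the comparison of bleomycin with control, 5 of the 7 tested genes were called higher, 1 lower and 1 not called, where 8.43% of all 14645 tested genes were called (4.74% higher and 3.69% lower). The gene not called was Defb4, which passed the filter only through the bleomycin libraries and is left out of the rest of this comparison. The groups did not overlap for any of the other 6 (5 higher and 1 lower), and 35.7% of all tested genes had no overlap (18.4% higher and 17.3% lower). The median difference of these 6 was 1.78, that of all tested genes 0.01. Defb4 is counted again in the 7 below, and for nitrate against bleomycin the filter favoured a value below 0 for it. Between nitrate and bleomycin none of the 7 was called, and 0% of all genes were called by limma. An unadjusted p under 0.05 (limma) was found for 17.9% (2624 genes), Defb14, Lcn2 and Slpi among them. The groups did not overlap for 2 of the 7, Lcn2 and Slpi, and for 21.2% of all genes (9.4% higher and 11.8% lower). Between nitrate and control 2 of the 7 were called higher, 1 lower and 4 not called, beside 8.53% of all genes (3.63% higher and 4.9% lower), and the groups did not overlap for 4 of the 7, beside 34.8% (17.3% higher and 17.5% lower). Without control 1 and bleomycin 1 together, the bleomycin calls were lost for Defb1 (adjusted p = 0.113), Defb6 (0.134), Defb8 (0.0510), Defb14 (0.213) and Lcn2 (0.116) and kept for Slpi, and the nitrate calls against control were lost for Defb1 (0.105), Defb6 (0.112) and Defb8 (0.0582). These counts were part of what the genes were chosen on. The 3 comparisons share libraries pairwise, so their values are set side by side only.

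**Figure D3:**
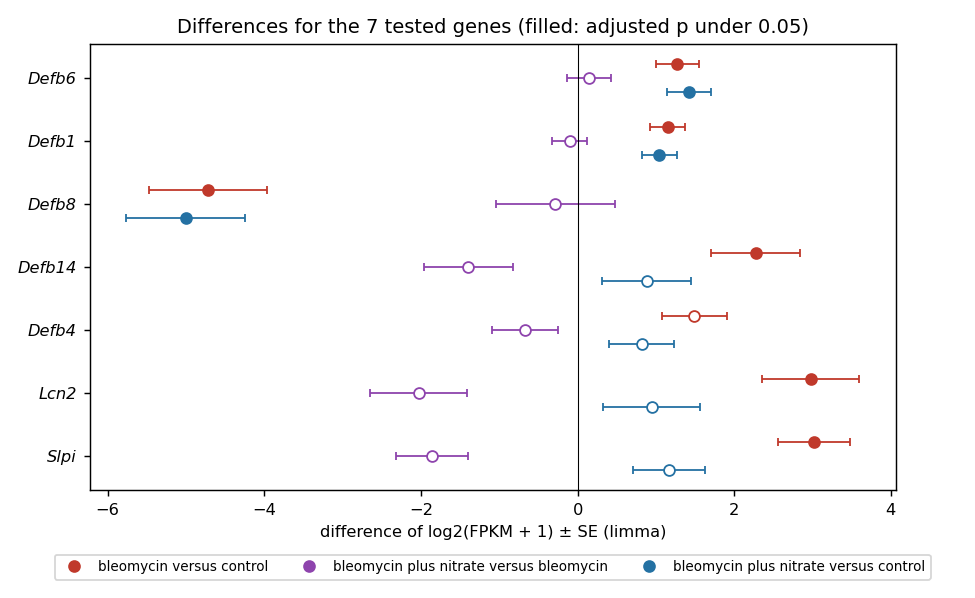
Difference of log2(FPKM + 1) with its standard error (limma) for the 7 tested genes in the 3 comparisons; filled points have an adjusted p under 0.05. Bleomycin against control ran from -4.72 for Defb8 to 3.02 for Slpi, and no difference between nitrate and bleomycin was called.

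Related genes were counted in lists, and each count stands beside 4.74% higher and 3.69% lower among all tested genes for bleomycin against control, and 3.63% and 4.9% for nitrate against control. Other antimicrobial proteins of skin gave 20 tested genes of 30 listed, with 5 higher with bleomycin and none lower, and a median difference of 0.60. One of the 5, Ccl20, passed the filter only with the bleomycin libraries counted, which fixed its direction. S100a9, a subunit of calprotectin, which sequesters metal ions, had 9.52, 0.228 and 1.65 FPKM in the controls, 1792, 232 and 258 with bleomycin, and 39.6, 87.6 and 9.77 with bleomycin plus nitrate. Its level in bleomycin 1 stood far above all others. It rose by 7.20 ± 1.14 (limma, adjusted p = 0.0124), and its partner S100a8 by 4.77 ± 0.95 (limma, adjusted p = 0.0225). Sprr2a1, an envelope protein of keratinocytes, rose by 4.04 ± 0.42 (limma, adjusted p = 0.00387), and Ccl20, a chemokine that binds Ccr6 as some beta-defensins do, had at most 0.167 FPKM in a control and 0.958 to 2.12 with bleomycin. The fifth was Lyz2, the lysozyme of macrophages. Between nitrate and bleomycin 13 of the 20 estimates were below 0 and none was called. Among the 20, Pglyrp1 passed the filter only with the bleomycin libraries counted and Wfdc18 only with the nitrate libraries. For these genes the filter favoured opposite directions here. Against control the nitrate group had Ccl20 and Wfdc18 higher, both of which passed the filter only with the nitrate libraries counted.

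Of 29 cytokines, receptors and regulators in the pathways that control these genes, 25 were tested, and 11 were higher and 1 lower with bleomycin (median 0.56). The 11 include Socs3 and Zc3h12a, which restrain such signalling, and Il6, whose direction was fixed by the filter. Il1b, the cytokine interleukin 1 beta, had 1.23, 1.03 and 0.452 FPKM in the controls, 29.5, 17.4 and 37.3 with bleomycin, and 3.83, 2.15 and 1.05 with bleomycin plus nitrate. It rose by 3.89 ± 0.36 (limma, adjusted p = 0.00253), and nitrate against bleomycin gave -3.14 ± 0.36 (limma, adjusted p = 0.0619). Il1f6, which encodes interleukin 36 alpha, rose by 4.18 ± 0.57 (limma, adjusted p = 0.00703) and was also higher with bleomycin plus nitrate than in control, by 2.82 ± 0.57 (limma, adjusted p = 0.0280). Socs3, a feedback inhibitor of cytokine signalling, rose by 2.19 ± 0.29 (limma, adjusted p = 0.00603). Il20ra, a receptor chain for interleukin 20 family cytokines, fell by 1.40 (SE 0.20, limma, adjusted p = 0.00864). The genes of the cytokines known as the main inducers of Defb4 and Lcn2 in keratinocytes, Il17a, Il17f and Il22, did not exceed 0.756 FPKM in any library and were not tested. Between nitrate and bleomycin 24 of the 25 estimates were below 0, the median was -0.66, and none was called. Il6 and Tnf, among the 25, passed the filter only through the bleomycin libraries, which favoured a value below 0 here. Against control the nitrate group had 2 of the 25 higher and 2 lower, with a median difference of 0.04.

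Proteases that cut these proteins or are blocked by Slpi gave 9 tested genes of 12, with 6 higher with bleomycin and none lower (median 1.67). One of the 6, Klk14, passed the filter only through the bleomycin libraries, and 5 of the other 8 were higher. Klk6, a skin kallikrein, had 19.1, 9.43 and 13.5 FPKM in the controls, 193, 141 and 75.4 with bleomycin, and 94.8, 39.4 and 34.4 with bleomycin plus nitrate. It rose by 3.14 ± 0.46 with bleomycin (limma, adjusted p = 0.00886) and by 1.83 ± 0.46 with bleomycin plus nitrate (limma, adjusted p = 0.0471). Klk8 and Klk7, kallikreins of the upper epidermis, rose by 1.86 ± 0.27 and 1.45 ± 0.24 with bleomycin (limma, adjusted p = 0.00823 and 0.0117), and Tpsb2, a mast cell tryptase, by 1.67 ± 0.26 (limma, adjusted p = 0.0103). The targets of Slpi in neutrophil granules, Elane and Ctsg, did not exceed 0.111 and 1.11 FPKM. Of 10 receptors for these proteins 8 were tested: Mrgprb2, the mast cell receptor that some defensins activate, fell by 0.68 with bleomycin (SE 0.13, limma, adjusted p = 0.0187), and the other 7 were not called. Ccr6 did not exceed 1.04 FPKM and was not tested.

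**Figure D4:**
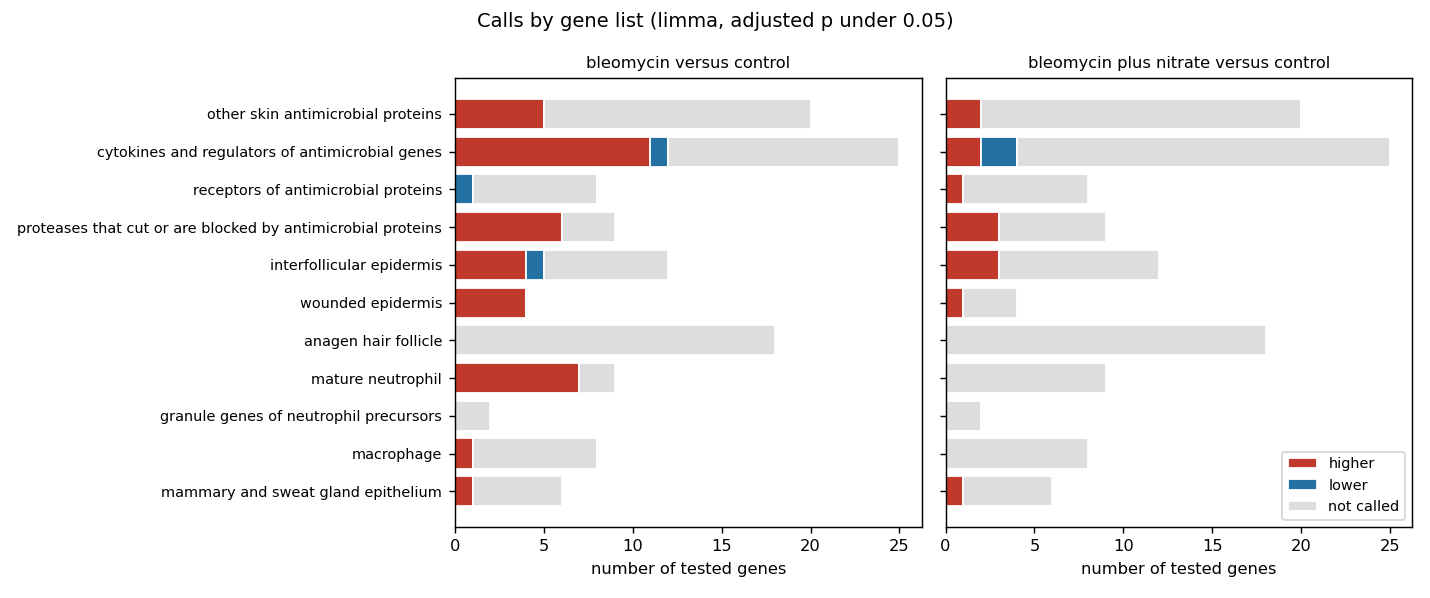
Tested genes of each list called higher, called lower or not called (limma, adjusted p under 0.05) in both comparisons with control, as numbers of genes. With bleomycin against control, 11 of 25 cytokines and regulators, 6 of 9 proteases and all 4 wounded epidermis genes were higher. Of the 25, 1 was lower. Socs3 and Zc3h12a, among the 11, restrain signalling. Il6 and Klk14 are counted although they passed the filter only through the bleomycin libraries. The same holds for Ccl20 among the other antimicrobial proteins and for 3 of the 7 neutrophil genes called higher. Among the cytokines and regulators and the proteases that passed otherwise, 10 of 23 and 5 of 8 were higher. With bleomycin plus nitrate 2, 3 and 1 were higher, and 2 of the 25 cytokines and regulators were lower. Both genes called there among the other antimicrobial proteins, Wfdc18 and Ccl20, passed the filter only with the nitrate libraries counted. Among all tested genes 4.74% and 3.63% were higher, and 3.69% and 4.9% lower.

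Most tested markers of wounded epidermis and of mature neutrophils were called higher with bleomycin, and most markers of the other cell types were not called. Of the 7 neutrophil calls, 3 were of genes that passed the filter only through the bleomycin libraries, which fixed their direction. All 4 keratin genes of wounded epidermis rose with bleomycin (median 5.19): their summed FPKM was 195 to 350 in the controls, 1250 to 4113 with bleomycin and 808 to 1833 with bleomycin plus nitrate. Krt16 had 37.3, 3.08 and 10.5 FPKM in the controls, 1364, 1273 and 347 with bleomycin, and 269, 69.7 and 34.9 with bleomycin plus nitrate, with bleomycin 3 the lowest of its group as for Slpi and Lcn2. Of 12 genes of the epidermis between follicles 4 rose, among them Krt14 by 2.15 ± 0.41 and Flg by 2.65 ± 0.54 (limma, adjusted p = 0.0189 and 0.0225), and the basal keratin Krt15 fell by 1.96 (SE 0.34, limma, adjusted p = 0.0144). Their summed FPKM was 2754 to 4700 in the controls, 7069 to 10249 with bleomycin and 5370 to 8563 with bleomycin plus nitrate. None of the 18 hair follicle genes was called in the 3 comparisons, and all 18 estimates were above 0 in each. Their medians were 1.13 for bleomycin against control, 3.08 for nitrate against bleomycin and 4.33 for nitrate against control.

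Of 14 mature neutrophil genes 9 were tested and 7 were higher with bleomycin. Of the 9, Cxcr2, Fpr1, Fpr2 and Clec4e passed the filter only through the bleomycin libraries, and 4 of the other 5 were higher: Clec4d, Csf3r, and S100a8 and S100a9, which keratinocytes also make. The list's summed FPKM was 15.4 to 38.9 in the controls, 480 to 3245 with bleomycin and 23.7 to 186 with bleomycin plus nitrate. A large part of the sums with bleomycin came from S100a9, at the levels given above, so they do not measure neutrophil RNA alone. Cxcr2, a chemokine receptor of neutrophils, had 0.451, 0 and 0.340 FPKM in the controls, 9.74, 6.15 and 5.38 with bleomycin and 1.18, 2.20 and 0.724 with bleomycin plus nitrate. Clec4d, a lectin receptor of myeloid cells, rose by 2.09 ± 0.23 (limma, adjusted p = 0.00435). Ly6g did not exceed 0.174 FPKM. The granule genes that neutrophil precursors transcribe gave 2 tested genes of 8 and no call, their sums were 1.58 to 18.6, 5.57 to 8.72 and 1.04 to 4.07 FPKM, Fcnb was at 0 in every library, and Mpo, Elane and Ngp did not exceed 0.331 FPKM. Of 8 macrophage genes 1, Lyz2, was higher, and the summed FPKM was 451 to 663, 1051 to 1926 and 335 to 865. Mammary and sweat gland genes gave 1 higher of 6 tested of 13, Aqp5 with 1.31 ± 0.30 (limma, adjusted p = 0.0332). Their sums were 9.63 to 15.9, 10.8 to 15.7 and 13.9 to 19.0 FPKM, and the casein genes Csn1s1, Csn1s2a and Csn2 were at 0. Mitochondrial genes took 6.61 to 8.02% of reads in the controls, 3.77 to 4.17% with bleomycin and 2.84 to 4.49% with bleomycin plus nitrate. The part of these cells and of RNA quality in the levels of the 10 genes was not tested.

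Without control 1 and bleomycin 1 together, a setting applied to the lists after the data were seen, 0.935% of all genes were called between bleomycin and control. S100a9 and Sprr2a1 stayed called among the other antimicrobial genes, Il1b and Socs3 among the cytokines and regulators, and Cxcr2, Clec4d, Clec4e and S100a9 among the neutrophil genes. Cxcr2 and Clec4e had passed the filter only through the bleomycin libraries. No protease, receptor, epidermal, follicle, macrophage or gland gene was called then, although the list medians moved little for the proteases (1.53) and wounded epidermis (5.39). Klk6 had an adjusted p of 0.0586, Krt16 of 0.0515 and Krt14 of 0.102 (limma). For nitrate against control 0.157% of all genes were called and Cebpd alone among the lists, lower, and the follicle median was 2.61.

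For each of the 7 tested genes, the 3 other tested genes with the most similar profile over the 9 libraries were found by the root mean square difference of log2(FPKM + 1), each profile centred on its own mean. The measure grows with a gene's own range, and its median over all genes was 0.63 for Defb1, 0.81 for Defb4, 0.75 for Defb6, 1.18 for Defb14, 1.38 for Slpi, 1.47 for Lcn2 and 2.48 for Defb8. For Lcn2 these were Gsdmc at 0.34, BC117090 at 0.47 and Il33, an alarmin cytokine, at 0.49. For Slpi they were Aqp3, a water and glycerol channel, at 0.34, Cxcr2 at 0.40 and Klk6 at 0.42. Aqp3 had 39.7, 17.9 and 28.7 FPKM in the controls, 293, 277 and 166 with bleomycin, and 102, 84.8 and 81.7 with bleomycin plus nitrate. The order of groups that it shares with Slpi follows from its choice by likeness over these same libraries. Defb14 lay nearest to Csta1 (0.41), Serpinb3b (0.45) and AC158985.1 (0.50), and Defb4 to Slc7a11 (0.26), Clcf1 (0.33) and Ces2e (0.34). Defb4, Slc7a11, Ces2e and Cxcr2 passed the filter only with the bleomycin libraries counted, so the filter itself favoured high values there for them. Defb1 lay nearest to Mab21l3, Sult2b1 and Cblc, all at 0.19, and Defb6 to Sox7 (0.24), Abhd12b (0.28) and Mgst2 (0.28). For Defb8, whose range was the widest, the nearest was 9130204L05Rik at 1.04, followed by Mrgprb11-ps at 1.39 and Thrsp, a gene of fat synthesis, at 1.42. 9130204L05Rik passed the filter only with the controls counted. Among the 7 genes the closest pairs were Defb1 with Defb6 at 0.35 and Lcn2 with Slpi at 0.40, and Defb8 was 2.97 to 3.56 from the other 6.

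**Figure D5:**
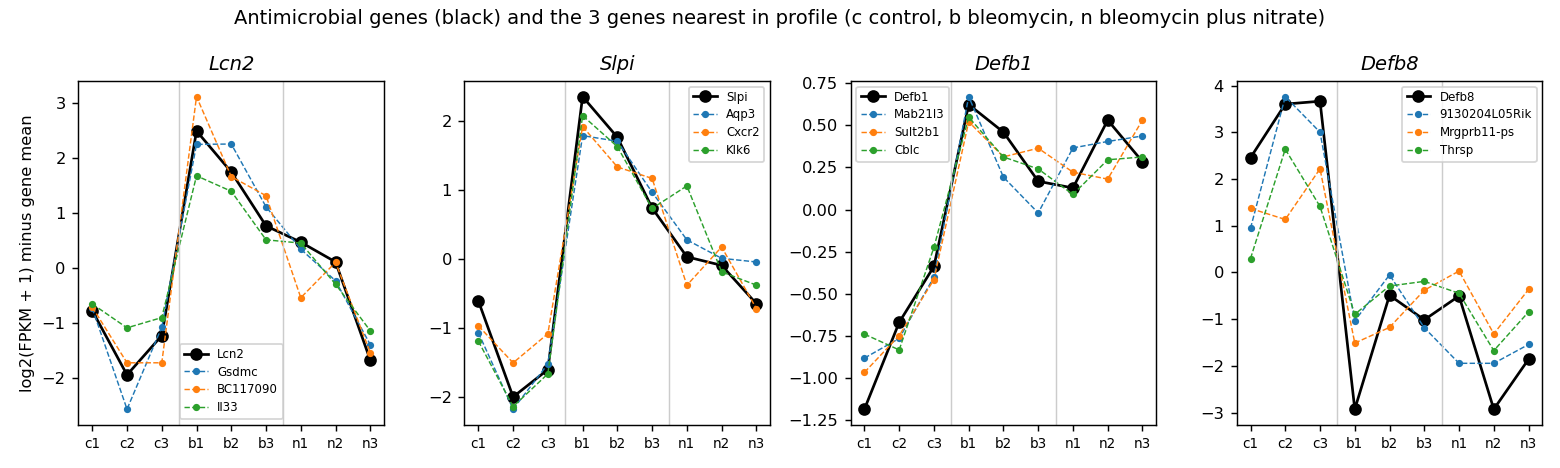
Log2(FPKM + 1) minus its mean over the 9 libraries for Lcn2, Slpi, Defb1 and Defb8 (black) and the 3 nearest genes of each, by library. Lcn2 and Slpi peaked in the 3 bleomycin libraries, and Defb8 was high in the 3 controls, with its nearest gene 9130204L05Rik at a distance of 1.04. The nearest genes were chosen for likeness over these same libraries, so their similar course follows from the choice.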

How the data were processed

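RNA of mouse skin was profiled in 9 libraries, 3 per group, grouped by their titles. RNA came, per the labels' protocols, from column extraction and libraries from the SMARTer kit. The authors deposited 1 table of FPKM values with gene lengths and coordinates, on mm10 per the submitters' processing notes. The sources used here do not give the aligner, counting tool or strand setting. FPKM multiplied by gene length came in whole steps in each library within 0.01, so whole reads were recovered. The steps imply library sizes 0.916 to 1.09 times the recovered reads, an added scaling of unknown method. Gene coordinates of the 10 genes equal those of the GRCm38 annotation used for transcripts.

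The 14645 genes that reached 1 FPKM in 3 or more of the 9 libraries entered limma 3.58.1 (R 4.3.3) as log2(FPKM + 1), in a single model of 3 group means (eBayes, trend and robust, two-sided), with Benjamini-Hochberg adjustment over all of them and a threshold of 0.05. Fold changes on that scale understate the change of low genes. The genes and lists were chosen with earlier results of these data known. Named were the 10 genes, up to 4 genes of each list with the smallest p for bleomycin against control, markers whose level is stated, and the 3 nearest profiles of each tested gene; the text gives a part of them. Lyz2, Wfdc18, Pglyrp1, Zc3h12a, Il6, Tnf, Klk14, Fpr1, Csf3r, Cebpd and genes named for a low level or a position were added after their values were seen. The lists share 8 genes, among them S100a8, S100a9 and Lyz2, and 1 listed symbol, S100a15, was not found. Some ratios of pooled reads on few reads have exact 95% intervals, and 0 reads allow up to 3. The ratios of Defb8, Lcn2 and Slpi against control are given without intervals. Alternatives were pseudocounts of 0.1 and 0.5, no filter (32197 genes), a mean FPKM of at least 5, other scalings, only the groups compared, a replicate block, sample weights, voom on the recovered reads, and leaving out libraries. The test was tried on simulated data. Sequences were aligned with Biopython 1.88, and figures drawn with matplotlib 3.10.9 in Python 3.11.15.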

Additional observations from a re-analysis of the deposited data

How the results depend on the processing

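Without a filter on low values 676 genes and 3 of the antimicrobial genes were called between bleomycin and control, in place of 1234 and 6, and 294 and 1 between nitrate and control, in place of 1249 and 3. A mean FPKM of at least 5 gave 747 genes in the first comparison. Fitting only the groups compared gave 306 genes and 1 antimicrobial gene between nitrate and control. Sample weights gave 1947 and 2085 genes. Without control 1 and bleomycin 1 together the counts were 137 genes and 1 antimicrobial gene, Slpi, for bleomycin, and 23 and 0 for nitrate, each against control. Leaving out each library in turn gave 334 to 1539 genes and 1 to 6 antimicrobial genes for bleomycin against control, 45 to 2882 and 0 to 3 for nitrate against control, and 0 to 37 and 0 for nitrate against bleomycin. Of the fold changes of the 7 tested genes under these settings, 349 kept direction and call, 52 lost the call, 6 gained it and 7 changed sign. The sign changes were between nitrate and bleomycin. Sample weights gave -0.033 for Defb6 and 0.17 for Defb8. Leaving out each library gave -0.20 (without nitrate 2) to 0.39 for Defb6, -1.01 to 0.30 (without nitrate 2; 0.21 without bleomycin 2) for Defb8, and -0.23 to 0.000837 (without bleomycin 1, alone or with control 1) for Defb1. Some settings had fewer libraries or a changed set of genes and others had neither, and the cause of the changes was not tested.

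With the replicate number as a block, 10 genes were called between nitrate and bleomycin, in place of 0; Defb14 lost its bleomycin call (adjusted p = 0.0774) and Defb4 gained one (0.0186). The samples share only a number: same-numbered deviations correlated at -0.391 to 0.517, 5 of 9 pairs over 0.1, and 5 of 9 libraries correlated best with their own number. Depth limits Defb3, Defb4, Defb14, Ltf and Camp, each on at most 100 reads per group.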
